A study of Mus musculus with 168 samples.

Results

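Facial motor neurons of mice with spinal muscular atrophy (SMA) were compared with those of littermate controls at postnatal day 5. The comparison rests on every library whose group label is facial, day 5, which gave 3 SMA mice (numbers 31, 61 and 77) and 4 control mice (29, 34, 71 and 75), 7 of the 160 mouse samples of the study. Each mouse gave 1 library. The SMA mice belong to the delta7 model (Smn-/-; SMN2+/+; SMN∆7+/+) and the controls to the same line with mouse Smn intact (Smn+/+; SMN2+/+; SMN∆7+/+), so both genotypes carry the human SMN2 gene and the transgene for human SMN without exon 7. About 150 cells a tube were cut by laser from frozen, stained sections of the facial nucleus, and polyA RNA was amplified with the Smart-seq2 protocol, which copies whole transcripts. The study took 6 populations of neurons at days 2, 5 and 10 (168 libraries, 34 mice), and day 5 is its early symptomatic stage. Facial samples of days 2 and 10 come from other mice than those of day 5, whereas vagus, hypoglossal and lumbar samples of day 5 come largely from the same mice.

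SMN protein helps to load the ring of Sm proteins onto small nuclear RNAs, which makes the small nuclear ribonucleoproteins (snRNPs) of the spliceosome. Its loss causes SMA, in which motor neurons and their junctions with muscle fail. The p53 protein is a transcription factor that responds to cell stress by switching on genes for cell cycle arrest, cell death and DNA repair. Facial motor neurons sit in the brainstem and drive the muscles of the face.

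Expression is given as RPKM, reads scaled to gene length and to library depth, and fold changes are SMA minus control on the scale of log2(RPKM + 1), which understates the change of genes with low values. The 7 libraries held 6.54 to 12.5 M reads, with SMA mouse 31 the deepest (12.5 M) and SMA mouse 61 the shallowest (6.54 M). The SMA libraries had 16836 to 18249 genes above 0 and the controls 15465 to 17185. Correlations of log2 values across 17270 genes ran from 0.894 to 0.935 between controls (6 pairs), from 0.89 to 0.937 between genotypes (12 pairs) and from 0.908 to 0.932 between SMA mice (3 pairs), so genotype did not part the libraries as a whole. Ddx3y, a gene of the Y chromosome, had 12.2 RPKM in control mouse 75 and at most 0.0329 in the other 6 mice.

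The sequences below belong to genes the results turn on. Cdkn1a and Ccng1 are p53 targets whose values were above every control in each SMA mouse, and the stretches upstream of their RefSeq starts that hold a p53 half-site (a motif of 10 bases, searched on both strands by its standard consensus) are shown from GRCm38.p6, with the half-sites in capitals. The stretch of Cdkn1a is chr17:29090879-29090978, plus strand, the 100 bases before 1 of its RefSeq starts. The stretch of Ccng1 is chr11:40755387-40755486, minus strand, in the 200 bases before the start.
Cdkn1a: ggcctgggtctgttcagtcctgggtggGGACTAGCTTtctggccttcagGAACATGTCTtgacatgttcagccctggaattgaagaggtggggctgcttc
Ccng1: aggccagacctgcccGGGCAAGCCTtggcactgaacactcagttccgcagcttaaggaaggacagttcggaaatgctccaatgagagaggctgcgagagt
Of 32851 RefSeq windows from 250 bases before to 50 after a start, 8.36% held at least 1 half-site, and of the 61 windows of the p53 target list 24.6% did. Cdkn1a had 2 such windows, and only 1, that of the stretch shown, held a half-site. The window of Plk2 and that of Snrpa1 held none. A match of letters is a description and not a binding site.

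Smn1, the gene removed in SMA mice (chromosome 13, 100124852 to 100137690, plus strand, GRCm38), was measured first as a check of the labels. Smn1 had 22.4, 11.7, 30.1 and 34.6 RPKM in control mice 29, 34, 71 and 75, and 0.488, 0 and 0.709 in SMA mice 31, 61 and 77. The genotypes did not overlap, and the mean was 24.7 ± 10.0 RPKM in controls (SD, n = 4) and 0.399 ± 0.363 in SMA (n = 3). The fitted log2 difference was −4.13 (limma, SE 0.511, adjusted p = 1e-04). Human SMN2, which has a row of its own, had 137.4 ± 37.9 RPKM in controls and 141.1 ± 18.0 in SMA (SD, n = 4 and 3), which differed by 0.07 on the log2 scale (limma, SE 0.331, adjusted p = 1). Whether some reads of the transgenes were counted to Smn1, or the reverse, was not tested.

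Across the genome, 12 of 17270 genes (0.0695%) passed an adjusted p of 0.05 in limma, 11 higher in SMA and Smn1 lower. Without adjustment, 698 genes (4.04%) were higher and 247 (1.43%) lower at p under 0.05. Values of the 2 genotypes did not overlap in 699 genes with SMA above control (4.05%) and in 311 with SMA below (1.8%). Over all tested genes the median log2 difference was 0.07, and after quantile normalization it was −0.003, with 519 genes higher and 387 lower at an unadjusted p under 0.05. Genes above 0 numbered more in SMA mice 31 and 61 than in any control, and in SMA mouse 77 fewer than in controls 71 and 75. The part of this in the surplus of higher genes was not tested. Among the 699 genes with SMA above control, mouse 31 was the highest SMA mouse in 336 and mouse 61 in 129, with mouse 77 in between. With SMA mouse 31 left out 4 genes were higher, with control mouse 34 left out 6, and with control mouse 71 or 75 left out 7. With only the 7 samples of day 5 in the fit, in place of the 27 facial samples of all ages, the adjusted p of the 12 genes ran from 0.0843 to 0.773 and none passed. The 2 genes that passed in that fit were Gm12940_ann1 and RMST_3, named after their values were seen.

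Of the 12 genes, 5 had a mean of at least 10 RPKM in the higher genotype. They were Smn1, Cdkn1a, Plk2, Snrpa1 and Snord13. The other 7, all higher in SMA, were scarce transcripts, 6 of them at 0 in every control. For 6 of the 7, Gm4258 being the exception, fewer than 3 facial samples outside the SMA mice of day 5 reached 1 RPKM. They entered the test only through the group in which they are high, so their calls are descriptions and support nothing. The plot of the 12 genes by mouse shows both kinds.

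**Figure D1:**
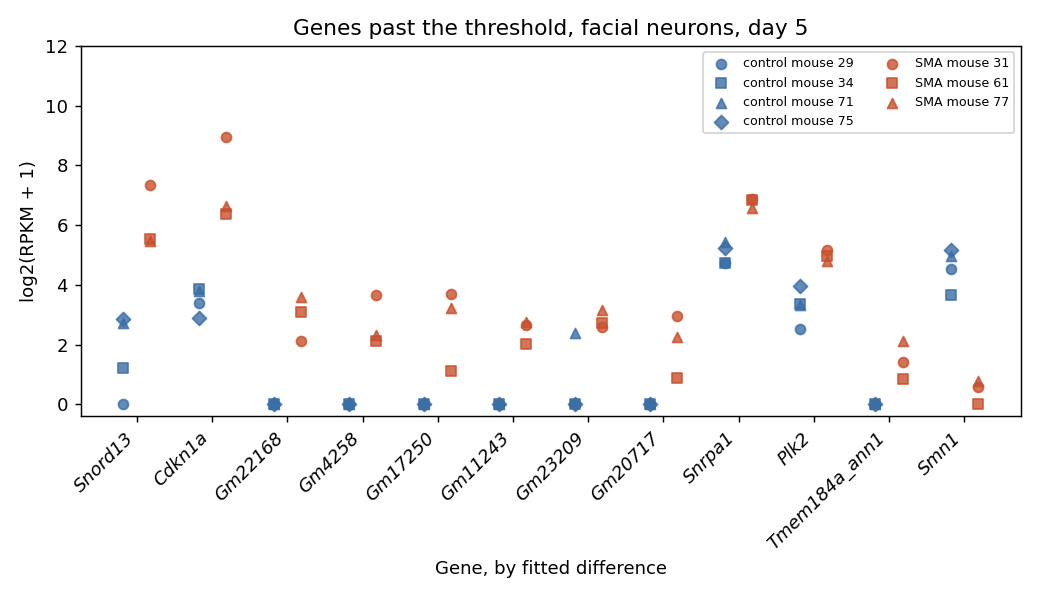
The 12 genes past the threshold, in log2(RPKM + 1), with controls in blue and SMA in orange, 1 symbol a mouse. Cdkn1a, Snord13, Snrpa1 and Plk2 are present in both genotypes or nearly so, whereas 6 genes lie at 0 in all 4 controls and Smn1 is the gene that is lower in SMA.

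Cdkn1a (chromosome 17, 29090976 to 29100727, plus strand, protein coding) encodes p21, an inhibitor of cyclin-dependent kinases and the best known target of p53. Cdkn1a had 498.3, 82.2 and 98.9 RPKM in SMA mice 31, 61 and 77, and 9.50, 13.5, 12.8 and 6.34 in control mice 29, 34, 71 and 75. Each SMA mouse was above every control, and mouse 31 stood far above the other 2. The mean rose 21.5-fold, from 10.5 ± 3.29 (SD, n = 4) to 226.5 ± 235.6 (n = 3), and the fitted log2 difference was 3.85 (limma, SE 0.664, adjusted p = 0.0101). Without SMA mouse 31 the ratio of means was 8.6, the log2 fold change 3.03 and the adjusted p 0.181. It stayed past the threshold with any other day 5 mouse left out (adjusted p 0.00765 to 0.0495).

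The same animal had the highest Cdkn1a of the SMA mice in 5 of the 6 populations sampled at day 5. Mouse 31 had 360.0 RPKM in vagus, 392.2 in red nucleus, 272.8 in ocular and 174.1 in hypoglossal neurons. In lumbar neurons it had 72.7, and the other SMA mice 52.2, 119.1, 129.3 and 167.1. Snord13 was highest in mouse 31 in 4 of the 6 populations, Snrpa1 in 2 and Plk2 in 1.

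Plk2 (chromosome 13, 110395046 to 110400844, plus strand, protein coding), a polo-like kinase that p53 induces and that also acts at synapses, was the other p53 target past the threshold. Plk2 had 35.1, 30.2 and 27.1 RPKM in SMA mice 31, 61 and 77, and 4.75, 9.34, 8.98 and 14.6 in control mice 29, 34, 71 and 75. The SMA values lay close together and above every control. The mean rose from 9.40 ± 4.02 (SD, n = 4) to 30.8 ± 4.04 (n = 3), 3.27-fold, and the fitted log2 difference was 1.69 (limma, SE 0.332, adjusted p = 0.0379). The call was lost when any mouse but control 75 was left out, with adjusted p of 0.0844 to 0.255 and log2 fold changes of 1.43 to 1.78 in those 6 fits. It was also lost with a pseudocount of 0.1 (adjusted p 0.0761), with quantile normalization (0.0521) and with array weights (0.0869).

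Snrpa1 (chromosome 7, 66059003 to 66074587, plus strand, protein coding) encodes a core protein of the U2 snRNP, the particle that marks the branch point of introns. Snrpa1 had 115.2, 113.3 and 95.2 RPKM in SMA mice 31, 61 and 77, and 25.3, 25.5, 42.2 and 36.4 in control mice 29, 34, 71 and 75. The genotypes were far apart and the spread within each was small. The mean rose 3.33-fold, from 32.4 ± 8.38 (SD, n = 4) to 107.9 ± 11.1 (n = 3), and the fitted log2 difference was 1.74 (limma, SE 0.281, adjusted p = 0.00471). Without SMA mouse 31 the adjusted p was 0.0575 at a log2 fold change of 1.69. Its 5′ end overlaps the protein-coding gene model Gm45213 on the same strand, and how reads of the overlap were counted is not given in the sources used here.

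Snord13 is a small nucleolar RNA that takes part in the maturation of small-subunit ribosomal RNA and has its own promoter. Snord13 had 162.3, 45.6 and 43.3 RPKM in SMA mice 31, 61 and 77, and 0, 1.33, 5.62 and 6.26 in control mice 29, 34, 71 and 75. The row is 104 bases long, and these values correspond to 211, 31 and 36 reads in SMA and to 0, 1, 5 and 5 in controls. The mean rose 25.3-fold, from 3.30 ± 3.11 (SD, n = 4) to 83.7 ± 68.0 (n = 3), and the fitted log2 difference was 4.42 (limma, SE 0.63, adjusted p = 0.000935). Without SMA mouse 31 the SMA mean was 44.5 RPKM and the ratio of means 13.4. The call held with each day 5 mouse left out in turn (adjusted p 0.000528 to 0.0346). Libraries were made from polyA RNA, and how this transcript entered them was not tested.

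The 7 scarce transcripts were Gm11243, Gm22168, Gm4258, Tmem184a_ann1, Gm23209, Gm17250 and Gm20717. Gm11243 (chromosome 4, 76793729 to 76794122, plus strand) is a processed pseudogene inside the span of Ptprd, on the strand opposite to it and over none of its exons. Its nearest coding transcript is the ribosomal protein gene Rpl27a, with 86.4% identity over 374 bases. Gm11243 had 5.28, 3.10 and 5.72 RPKM in SMA mice 31, 61 and 77, which are 26, 8 and 18 reads, and 0 in all 4 controls. Against a floor of 3 reads in a control library it was at least 4.46-fold higher in SMA (limma adjusted p = 4.83e-07). No facial sample outside the SMA mice of day 5 reached 1 RPKM. At days 2 and 10 it was at 0 in 18 of 20 facial samples of both genotypes.

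Gm22168 has no position in the annotation used. It had 3.38, 7.44 and 10.97 RPKM in SMA mice 31, 61 and 77, was listed at 0 in all 4 controls (limma adjusted p = 0.00104) and was at 0 in 18 of the 20 facial samples of other ages. Gm4258 (chromosome 1, 137898595 to 138000384, plus strand), a non-coding transcript whose span holds the microRNA genes Mir181a-1 and Mir181b-1, had 11.5, 3.32 and 3.96 RPKM in the SMA mice and 0 in the controls. Its adjusted p was 0.0101 in limma, 0.17 without SMA mouse 31 and 0.0828 with a pseudocount of 0.1. Gm17250, a long intergenic RNA of chromosome 2, lies within the span of Itga6 on the other strand. It overlaps no exon of Itga6, but exons of the non-coding Gm13663 overlap its span. Gm17250 had 11.8, 1.17 and 8.30 RPKM in SMA mice 31, 61 and 77 and 0 in controls (limma adjusted p = 0.0302). Gm20717, antisense to Asap1 on chromosome 15 with annotated Asap1 exons over its span, had 6.75, 0.860 and 3.76 and 0 in controls (limma adjusted p = 0.0483). Without strand, reads of an antisense gene and its partner cannot be told apart.

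Tmem184a_ann1 had 1.68, 0.786 and 3.35 RPKM in SMA mice 31, 61 and 77 and was listed at 0 in controls (limma adjusted p = 0.0203). Gm23209, a copy of a small nuclear RNA inside an intron of Rere on the same strand, had 5.09, 5.56 and 7.97 RPKM in SMA, or 7, 4 and 7 reads, against 4.25 RPKM (4 reads) in control mouse 71 and 0 in the other 3 controls (limma adjusted p = 0.0265). The calls of Tmem184a_ann1, Gm23209, Gm17250 and Gm20717 were each lost in 6 of the 7 fits with 1 mouse left out. Of all 17270 genes, 44 were at 0 in every control and above 0 in every SMA mouse, and 9 showed the opposite pattern. The first pattern needs 3 mice above 0 and 4 at 0, and the opposite pattern needs 4 above 0 and 3 at 0. SMA mice 31 and 61 also had more genes above 0 than any control. The counts are therefore a description, and their difference was not tested.

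The age at which these genes parted was examined with the facial samples of days 2 and 10. Cdkn1a had medians of 65.9 RPKM in SMA and 14.2 in controls at day 2, and of 377.6 and 7.80 at day 10. Its log2 fold change was 2.19 at day 2 (limma adjusted p = 0.192), 3.85 at day 5 and 5.71 at day 10. The difference between days 2 and 5 was 1.66 (limma, SE 0.837, adjusted p = 0.933). Between days 5 and 10 it was 1.86 (SE 0.905). Neither change with age passed the threshold. In SMA mice the Plk2 level was 26.2 ± 4.65 RPKM at day 2 (SD, n = 7) and 34.3 ± 3.68 at day 10 (n = 4), so its SMA level lay within 26.2 to 34.3 at the 3 ages. Its control level was 20.7 ± 4.18 at day 2 (n = 5), 9.40 ± 4.02 at day 5 (n = 4) and 6.88 ± 4.27 at day 10 (n = 4). The log2 fold change of Plk2 was 0.33 at day 2 and 2.32 at day 10, with a difference between days 2 and 5 of 1.36 (limma, SE 0.418, adjusted p = 0.832), which is not past the threshold. Snrpa1 and Snord13 passed at all 3 ages, with log2 fold changes of 1.16, 1.74 and 1.41 for Snrpa1 and of 2.68, 4.42 and 4.76 for Snord13.

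**Figure D2:**
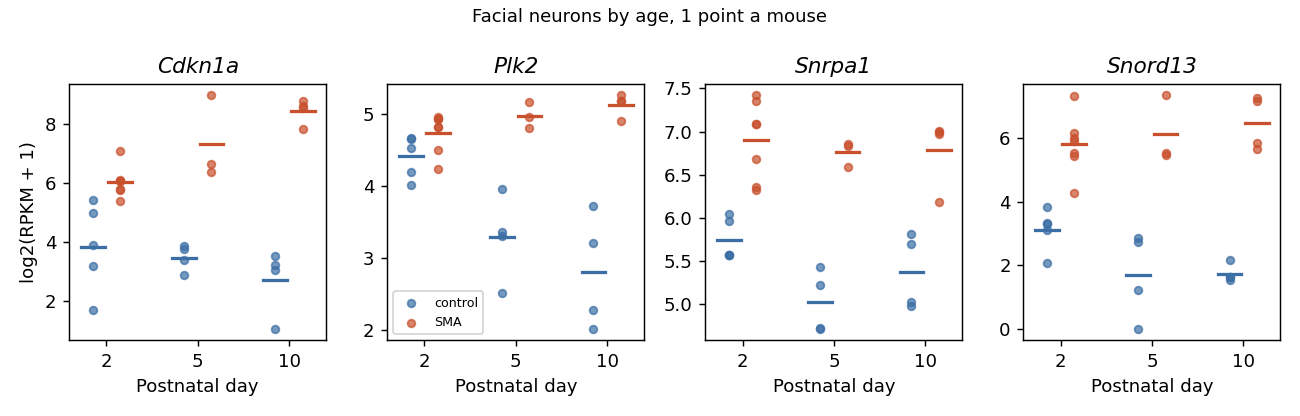
Cdkn1a, Plk2, Snrpa1 and Snord13 in facial neurons at postnatal days 2, 5 and 10, in log2(RPKM + 1), 1 point a mouse with control in blue and SMA in orange, and bars at the group means. At day 5 the genotypes do not overlap in any of the 4 genes, while for Cdkn1a and Plk2 they overlap at day 2.

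The change of the genotype difference with age was tested over all genes. Between days 5 and 10, 6 of 17270 genes (0.0347%) passed, and between days 2 and 5, 2 (0.0116%) did. The 5 genes with a larger difference at day 10 were Bglap, Bglap2, Cpne2, Them5 and Gm24517. Bglap2, of the osteocalcin family and a close paralog of Bglap, had log2 fold changes of 0.9 at day 5 and 4.72 at day 10 (difference 3.82, limma, SE 0.477, adjusted p = 0.000123). Cpne2, a copine that binds membranes when calcium rises, had 0.44 and 3.62 (difference 3.18, limma, SE 0.471, adjusted p = 0.00138). Reads of Bglap and Bglap2 may be shared between the paralogs. Gm11243 had a smaller difference at day 10 (−2.57, limma, SE 0.312, adjusted p = 0.000123), as it was near 0 in both genotypes there. Between days 2 and 5 Gm11243 and Cdc16 passed. Both differences of Gm11243 restate the values that let it into the test. Cdc16, a subunit of the anaphase-promoting complex, had 58.97, 40.1 and 86.1 RPKM in SMA mice 31, 61 and 77 and 23.4, 31.2, 25.01 and 26.8 in control mice 29, 34, 71 and 75. It went from a log2 fold change of −1.52 at day 2 to 1.12 at day 5 (difference 2.64, limma, SE 0.395, adjusted p = 0.00311), although at day 5 alone it did not pass (adjusted p 0.489).

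The genes past the threshold in facial neurons at day 10 (97 higher and 18 lower in SMA, 0.666% of 17270) were followed back to the other mice of day 5. Of the 97 genes higher in SMA at day 10, 81 (83.5%) had a positive log2 fold change at day 5, where 56.9% of all genes did. At day 5, 34 of the 97 were higher at an unadjusted p under 0.05, against 4.04% of all genes, and 4 passed after adjustment, against 0.0695%, and the median was 0.51 against 0.07 for all genes. Leaving out SMA mouse 77 gave 22 of 97. Of the 18 genes lower at day 10, 2 had a positive value at day 5, 3 were lower at an unadjusted p under 0.05, and the median was −0.27. Beside the genes above, those nearest the threshold at day 5 were Trim72, a membrane repair protein, with a log2 fold change of 1.70 (limma, SE 0.35, adjusted p = 0.0579), and Ddit4l, a relative of the mTOR inhibitor Ddit4, with 1.79 (limma, SE 0.395, adjusted p = 0.114). Both were called at day 10, where their log2 fold changes were 3.54 and 3.38, and both had values that did not overlap at day 5.

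**Figure D3:**
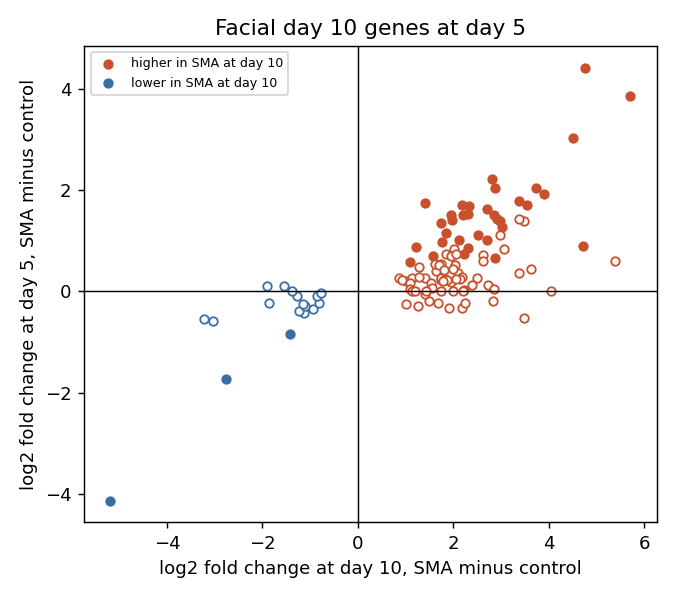
The genes past the threshold in facial neurons at day 10 (97 higher and 18 lower in SMA), with their log2 fold change at day 10 on the x axis and at day 5 on the y axis, in orange where higher and blue where lower in SMA at day 10. Filled points had an unadjusted p under 0.05 at day 5, and 81 of the 97 orange points lie above 0.

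The p53 targets were taken as a list of 57 symbols, of which 50 were tested. At day 5, 2 passed (Cdkn1a and Plk2), 17 (34.0%, against 4.04% of all genes) were higher at an unadjusted p under 0.05 and 0 (against 1.43%) were lower. The list's median log2 fold change was 0.61, or 0.63 with Psrc1 and Trp73, at 0 in all controls, set to the bound that 3 reads allow. In 15 members (30.0%, against 4.05% of all genes) every SMA mouse was above every control, and in 1 (2.0%, against 1.8%), Gls2, below. Of the 50, 43 had a positive value, where 56.9% of all genes did. Over the alternative settings and with each day 5 mouse left out, the number at an unadjusted p under 0.05 ran from 13 to 18, and the medians were 0.36 at day 2 and 0.97 at day 10.

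Among the 13 members that act in cell cycle arrest, 5 (38.5%, against 4.04% of all genes) were higher at an unadjusted p under 0.05. Ccng1, cyclin G1, had 46.4, 55.1 and 50.6 RPKM in SMA mice 31, 61 and 77 and 28.6, 26.1, 19.8 and 15.9 in control mice 29, 34, 71 and 75. The SMA values were close together and all above the controls, with a log2 fold change of 1.16 (limma, SE 0.272, adjusted p = 0.188). Psrc1, which binds microtubules of the mitotic spindle, had 6.75, 0.748 and 4.21 in SMA and 0 in the controls (2.05, limma, SE 0.652, adjusted p = 0.65). Gtse1, a p53 regulator of the cell cycle, was at most 3.13 RPKM in each mouse. Btg2 and Sesn2 had log2 fold changes of 0.71 and 0.73, and Gadd45a and Ccng2 had −0.39 and −0.42, all within the spread of the mice.

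Of the 17 that act in cell death, 8 (47.1%, against 4.04% of all genes) were higher at an unadjusted p under 0.05 and 16 (94.1%, against 56.9%) had a positive value. Fas, a death receptor, had 5.92, 9.05 and 9.43 RPKM in SMA mice 31, 61 and 77 and 6.36, 0, 0 and 2.10 in control mice 29, 34, 71 and 75. Control mouse 29 overlapped the SMA mice, and the log2 fold change was 2.04 (limma, SE 0.511, adjusted p = 0.314). Without control mouse 29 Fas passed, at 2.62 (adjusted p 0.014). Pmaip1, which encodes the BH3 protein Noxa, had 1.15, 3.35 and 2.03 in SMA and 0, 0, 0.398 and 0.837 in controls, with no overlap (1.27, limma, SE 0.406, adjusted p = 0.655). Perp, a p53 effector in the membrane, had 11.6, 8.20 and 13.6 in SMA and 0.196, 6.26, 5.91 and 4.11 in controls (1.51, limma, SE 0.576, adjusted p = 0.827). Phlda3, an inhibitor of Akt, had 116.8, 58.7 and 56 in SMA and 47.8, 41.0, 38.9 and 24.2 in controls (0.96, limma, SE 0.381, adjusted p = 0.846). Trp53inp1 and Tnfrsf10b also had values without overlap, whereas Bax (0.54) and Bbc3 (0.07), the gene of Puma, did overlap.

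All 6 regulators of p53 had positive values, where 56.9% of all genes did. Mdm2, the ligase that degrades p53 and is itself a p53 target, had 16.9, 14.2 and 18.4 RPKM in SMA mice 31, 61 and 77 and 7.41, 9.05, 7.60 and 13.2 in control mice 29, 34, 71 and 75. The values did not overlap, but the log2 fold change of 0.79 (limma, SE 0.441, adjusted p = 0.958) did not pass. Trp53, which encodes p53 itself and was named after its values were seen, had 14.1 ± 5.99 RPKM in SMA (SD, n = 3) and 9.25 ± 3.21 in controls (n = 4), a difference that did not pass at day 5 (0.55, limma, SE 0.325, adjusted p = 0.959). Of the 14 genes of repair, metabolism and secretion, 3 (21.4%, against 4.04% of all genes) were higher at an unadjusted p under 0.05. All 3 had SMA values above every control (21.4%, against 4.05% of all genes). They were Dcxr (1.93), a carbonyl reductase, Ephx1 (1.16), an epoxide hydrolase, and Fam212b (0.97).

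**Figure D4:**
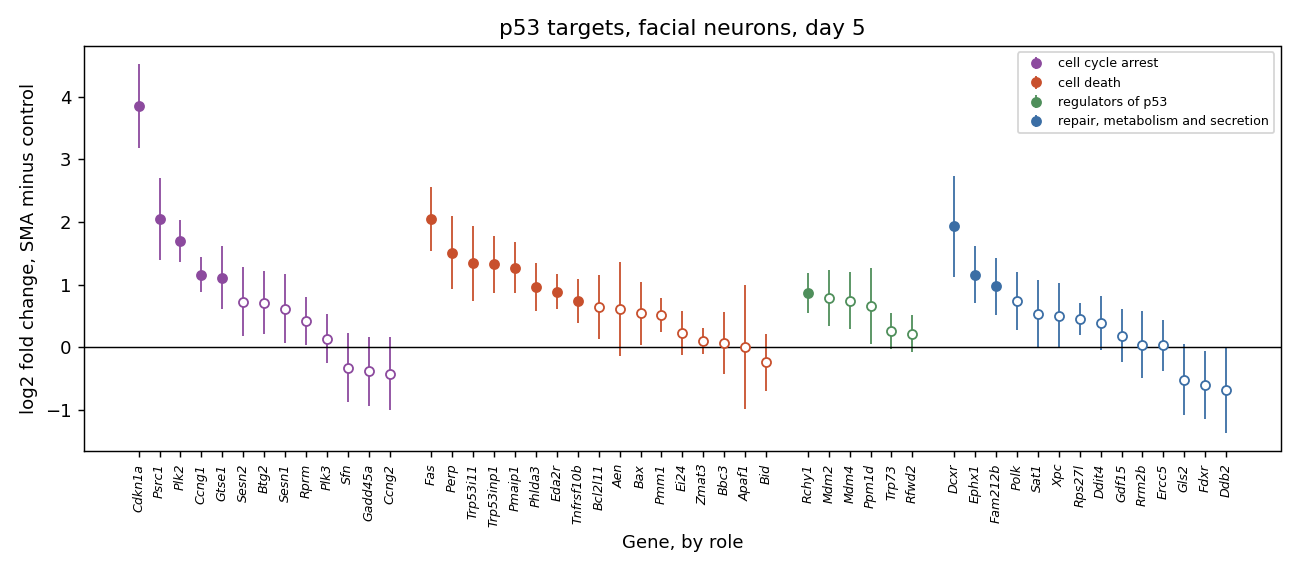
Log2 fold changes of the 50 p53 targets tested in facial neurons at day 5, SMA minus control, by role, with bars of 1 SE from limma. Filled points had an unadjusted p under 0.05, which 17 did, all above 0, and 7 points lie below 0.

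Genes of snRNPs were next, since SMN acts there. Of 34 tested, Snrpa1 passed, 2 (5.88%, near the 4.04% of all genes) were higher at an unadjusted p under 0.05 and 0 lower. All 11 members of the U2 snRNP had a positive value, where 56.9% of all genes did, with a median of 0.35. Over all 34 snRNP genes 26 had a positive value (median 0.19), and without SMA mouse 31, 20 did (median 0.25). Sf3b5, a small subunit of the SF3b complex, had 148.9, 110.9 and 97.5 RPKM in SMA mice 31, 61 and 77 and 85.1, 87.2, 70.9 and 78.02 in control mice 29, 34, 71 and 75 (0.55, limma, SE 0.259, adjusted p = 0.908). Sf3b3 and Snrpb2 had values without overlap as well, with 0.52 and 0.37. The Sm core had a median of 0.12 over 8 genes, the U1 proteins −0.02 over 3 and the proteins of the tri-snRNP 0.11 over 12. In the SMN complex (9 tested) Smn1 passed and the partner proteins did not, with log2 fold changes from −1.0 for Ddx20 to 1.13 for Gemin6. The 10 genes of the minor spliceosome with Stasimon (Tmem41b) had a median of 0.24, and 0 had an unadjusted p under 0.05.

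Of the small nucleolar and Cajal body RNAs listed, 50 were tested, and 7 (14.0%, against 4.04% of all genes) were higher at an unadjusted p under 0.05 and 0 (against 1.43%) lower. The median was 0.39, but 15 of the 50 were at 0 throughout 1 genotype, and with these at the bound of 3 reads the median was 0. The count was 4 without SMA mouse 61 and 10 without control mouse 29, and 12 with array weights. Snord64 had 53.7, 70.7 and 91.5 RPKM in SMA mice 31, 61 and 77 and 18.6, 26.9, 31.4 and 33.1 in control mice 29, 34, 71 and 75, with no overlap (1.36, limma, SE 0.562, adjusted p = 0.848). Snora21, Snora20, Snord67, Scarna17 and Snord98 were at 0 in every control and in at least 1 SMA mouse.

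Markers of motor neurons were read to check the capture. Isl1, a transcription factor of motor neurons, had 225.5 ± 59.9 RPKM in SMA (SD, n = 3), with the top value in SMA mouse 31 and the other 2 SMA mice within the control range. The cholinergic genes Slc5a7 and Ache had at least 86.2 and 131.1 in each of the 7 mice, and Chat 9.31 to 33.9. Of 17 markers tested 0 passed, and 15 (88.2%, against 56.9% of all genes) had a positive value (median 0.18). Without SMA mouse 31, 12 of the 17 had a positive value and the median was 0.07. Summed over 19 markers, the level was 1078 RPKM in SMA mouse 31 and 667.3 to 799.1 elsewhere. Slc10a4, a vesicular transporter of cholinergic neurons, had 61.2, 54.8 and 52.8 in SMA mice 31, 61 and 77 and 43.9, 38.7, 40.9 and 36.5 in control mice 29, 34, 71 and 75 (0.48, limma, SE 0.186, unadjusted p = 0.0149).

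Markers of other cells were present and varied by mouse. In such bulk samples fewer cells of a type and less RNA per cell cannot be told apart. Oligodendrocyte markers summed to 759.4 RPKM in control mouse 29, 240.3 in 34 and 130.3 in 75, against 71.3, 83.1 and 115.4 in SMA mice 31, 61 and 77. Control mouse 29 was the highest by far, and control 71 lay between SMA mice 61 and 77. All 13 had a negative log2 fold change (median −0.92) and 6 (46.2%, against 1.43% of all genes) an unadjusted p under 0.05, with Mobp (−2.15) and Cldn11 (−1.78) the lowest. Without control mouse 29, 0 of 13 had an unadjusted p under 0.05 and the median was −0.62. Mog was at 0 in all SMA mice.

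Microglia markers also peaked in control mouse 29, at 119.8 RPKM against 11.6 to 32.2 in the other 6 mice. Vessel markers summed to 4.37 to 36.6 in controls and 4.17 to 12.5 in SMA. Hemoglobin and other red blood cell genes had 400.6 in SMA mouse 61 and 9.92 to 136.3 elsewhere. Astrocyte markers were the most abundant, with sums of 1760 to 1900 in controls and 1707 to 1765 in SMA, and none of the 10 passed. Of the 10, 4 (40.0%, against 56.9% of all genes) had a positive value, and the median was −0.06. Only 1 (10.0%, against 4.04% of all genes), Gfap, was higher at an unadjusted p under 0.05 in limma, and 0 were lower. Gfap, the filament of reactive astrocytes, had 2.60, 10.0 and 13.9 RPKM in SMA mice 31, 61 and 77 and 0.0939, 5.18, 0.574 and 0 in control mice 29, 34, 71 and 75 (2.22, limma, SE 0.587, adjusted p = 0.463), and it was called at day 10. Gad1, Gad2 and Slc6a5, genes of inhibitory neurons, were at most 1.16 RPKM in controls and highest in SMA mouse 61, at 5.34, 4.603 and 2.47. The part of these cells in the results above was not tested, except that 7 of the 12 calls remained without control mouse 29.

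**Figure D5:**
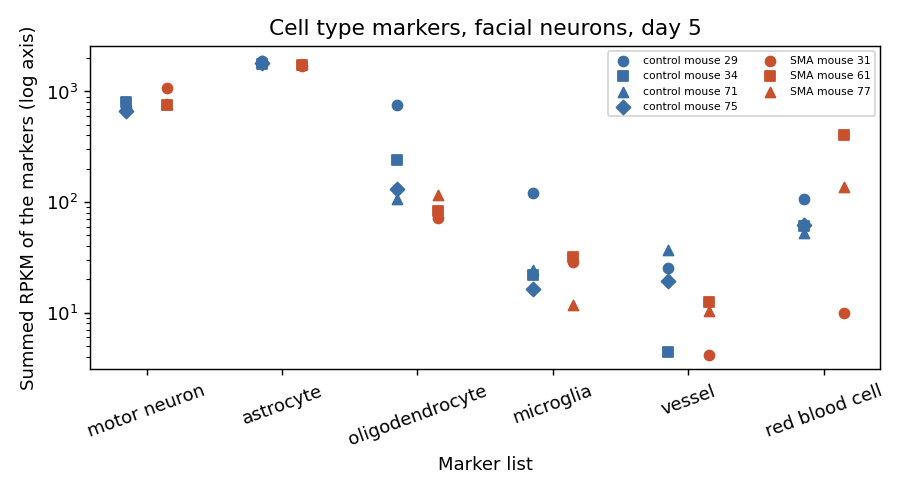
Summed RPKM of marker lists in each of the 7 facial libraries of day 5 on a log axis, controls in blue and SMA in orange. Astrocyte sums lie within 1707 to 1900 in all 7 mice, and oligodendrocyte and microglia sums are highest in control mouse 29.

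Other neuronal groups held few differences, and 0 of their members passed. Genes of vesicle release (28 tested) had 3 (10.7%) higher and 0 lower at an unadjusted p under 0.05, against 4.04% and 1.43% of all genes, with a median of −0.06. Sv2c, a synaptic vesicle glycoprotein, had 66.4, 25.2 and 31.3 RPKM in SMA mice 31, 61 and 77 and 19.0, 21.5, 20.0 and 22.5 in control mice 29, 34, 71 and 75 (0.83, limma, SE 0.282, adjusted p = 0.759). Syt1, the calcium sensor of fast release, had 88.2, 72.8 and 71.2 in SMA and 48.8, 59.8, 50.1 and 38.3 in controls (0.65, limma, SE 0.245, adjusted p = 0.826). Sodium and calcium channels (31 tested) had 3 (9.68%) higher and 0 lower. Cacng4, an auxiliary subunit of AMPA receptors, had 25.6, 14.98 and 20.7 in SMA and 5.01, 11.6, 10.3 and 10.8 in controls (1.07, limma, SE 0.315, adjusted p = 0.598), and Scn3a, a sodium channel of the immature brain, had 27.7, 20.3 and 26.5 against 19.5, 17.4, 11.2 and 13.5 (0.67, limma, SE 0.27, adjusted p = 0.846). Of 68 potassium channel genes 2 (2.94%) were higher and 0 lower, among them Kcnma1, the large calcium-gated channel (0.68, limma, SE 0.244, adjusted p = 0.76).

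No member of the stress and housekeeping lists passed. Of 30 genes of the unfolded protein and integrated stress response 1 was higher and 1 lower at an unadjusted p under 0.05 (3.33% each, median 0.14), and of 29 axon injury genes also 1 and 1 (3.45% each, median 0.12), where 4.04% of all genes were higher and 1.43% lower. In the latter Stat3, a transcription factor of injured neurons, had 94.2, 31.0 and 38.4 RPKM in SMA mice 31, 61 and 77 and 32.8, 18.9, 25.6 and 24.1 in control mice 29, 34, 71 and 75 (0.93, limma, SE 0.351, adjusted p = 0.826), with mouse 61 inside the control range. Cebpd, a transcription factor of acute inflammation, was the member on the lower side, with 0.542, 1.55 and 0.106 RPKM in SMA mice 31, 61 and 77 and 2.85, 4.11, 2.58 and 3.53 in control mice 29, 34, 71 and 75, without overlap (−1.37, limma, SE 0.627, adjusted p = 0.901). Of the 29 axon injury genes 24 (82.8%, against 56.9% of all genes) had a positive value. Without SMA mouse 31, 16 of them did, with a median of 0.04. Immediate early genes had 0 of 13 at an unadjusted p under 0.05. Cytosolic ribosomal proteins (76 tested) had 57 positive values (75.0%) and a median of 0.17. Nuclear genes of oxidative phosphorylation (83 tested) had 27 (32.5%) and a median of −0.1, and 56.9% of all genes had a positive value. Without SMA mouse 31 the ribosomal list had 40 positive values and a median of 0.02, and the oxidative phosphorylation list 28. In the main fit at most 1 member of either list had an unadjusted p under 0.05 in 1 direction. In the ribosomal list 2 were lower without SMA mouse 31, and 4 were higher without SMA mouse 77. Of 12 genes of neuronal filaments and peptides 3 had a positive value (median −0.13). Among the 5 filaments Ina, alpha-internexin, had a log2 difference of 0.48 (limma, SE 0.19, adjusted p = 0.846), and Nefl, Nefm, Nefh and Prph had −0.06, −0.12, −0.08 and −0.21.

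Further genes with the lowest unadjusted p below the calls, values without overlap and a mean of at least 10 RPKM in the higher genotype were listed, 10 in each direction. On the higher side, with adjusted p of 0.133 to 0.489, stood Tacc2, which binds centrosomes and microtubules, with 33.7, 28.0 and 30.6 RPKM in SMA mice 31, 61 and 77 and 16.1, 10.5, 8.52 and 8.76 in control mice 29, 34, 71 and 75 (1.45, SE 0.324). Cntn5, a neuronal adhesion molecule, had 76.4, 8.72 and 4.03 in SMA and at most 1.35 in controls (3.33, SE 0.803), so that mouse 31 carried most of its mean. Elavl2, an RNA-binding protein of neurons, had 211.4 ± 30.4 in SMA (SD, n = 3) and 107.5 to 149.8 in controls (0.72, SE 0.199). Areg, the growth factor amphiregulin, had 25.6, 15.04 and 26.3 in SMA and 3.23 to 8.10 in controls (1.85, SE 0.514). The others were Ccng1, Cpeb3, Arrdc4, Rcbtb1, 2810055G20Rik and the ribosomal RNA copy Gm24601.

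On the lower side the adjusted p ran from 0.598 to 0.781. Gtpbp3, which modifies mitochondrial tRNA, had 9, 8.38 and 6.92 RPKM in SMA mice 31, 61 and 77 and 15.6, 18.0, 16.3 and 14.7 in control mice 29, 34, 71 and 75 (−0.92, SE 0.267). Its spread was small in both genotypes. Necab2, a calcium-binding protein of neurons, had 21.9, 21.4 and 15.4 in SMA and 30.3 to 50.7 in controls (−0.96, SE 0.306). Smpd2, a neutral sphingomyelinase, had 2.00, 4.53 and 2.17 in SMA and 8.92 to 16.5 in controls (−1.68, SE 0.53). Gabrg1, a subunit of the GABA-A receptor, had 4.996, 11.98 and 8.68 in SMA and 12.9 to 26.0 in controls (−1.12, SE 0.404). The others were Cstf2, Pou6f1, Dusp15, Ccdc136, Bola1 and Gm26710.

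Whether the facial response at day 5 differed from that of other motor neurons was tested as a difference of genotype differences. Of 17839 genes 0 (0%) passed against vagus, 0 (0%) against hypoglossal and 0 (0%) against lumbar neurons in limma, with 976, 863 and 762 at an unadjusted p under 0.05. The lumbar controls of day 5 hold reads of an earlier deposit, per their labels. Cdkn1a controls had 10.5 ± 3.29 RPKM in facial (SD, n = 4), 8.85 ± 3.76 in lumbar (n = 5), 15.5 ± 9.25 in hypoglossal (n = 4) and 67.9 ± 9.67 in vagus neurons (n = 4), so that vagus controls lay above every facial control. The SMA means were 226.5 in facial, 108.1 in lumbar, 97.4 in hypoglossal and 173.2 in vagus neurons. SMA mouse 31 weighed on the facial and vagus means, with 498.3 and 360.0 RPKM. Without it the facial mean was 90.5, and the remaining vagus values were 88.8 and 70.8. Lumbar SMA mice had 52.2 to 167.1. The facial log2 fold change of Cdkn1a exceeded that of vagus by 2.89 (limma, SE 0.825, adjusted p = 0.586). For Plk2 the excess over vagus was 2.05 (limma, SE 0.538, adjusted p = 0.484), with vagus means of 16.6 ± 5.37 RPKM in controls and 13.5 ± 7.43 in SMA (SD, n = 4 and 3). For Snord13 it was 4.67 (limma, SE 1.23, adjusted p = 0.492). Over lumbar neurons the excess was 0.4 for Cdkn1a, 0.5 for Plk2 and 0.35 for Snrpa1 (SE 0.758, 0.494 and 0.483, each with an adjusted p of 1 in limma).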

How the data were processed

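RNA of laser-captured facial neurons was measured in 3 SMA and 4 control mice of day 5, and 20 facial samples of days 2 and 10 shared the estimate of spread. The authors deposited 1 table of RPKM with 39410 rows, mapped with STAR 2.4.1c to mm10 and hg19, per the submitters' processing notes. The read counter and the gene annotation are not given in the sources used here. Gene positions came from GENCODE M21 (89.5% of rows matched by name). Depth was read from the steps of low RPKM values of genes with 1 transcript. In the 7 libraries 72.4% to 75.9% of these values were whole reads within 0.02 of a read. Values of genes with more transcripts had no such steps, and a count test was therefore not made. Floors of 3 reads cover counting error only.

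The test was limma 3.58.1 (R 4.3.3) on log2(RPKM + 1) values (lmFit, eBayes with trend, two-sided, 6 group means). Genes had at least 1 RPKM in 3 of 27 samples. Adjusted p-values are those of Benjamini-Hochberg over all genes, with a threshold of 0.05. Day 5 populations were compared in a fit of 8 groups. The fit was run on simulated normal log2 values, with changes planted only in genes of higher level. Scarce transcripts got no planted change there, so that run does not show how the fit treats them. For single genes, an exact permutation test of 3 against 4 cannot go below p = 0.0571 and was not used. Named genes were all that passed, Smn1 and SMN2, list members, and up to 10 further genes a direction by unadjusted p, with values that did not overlap and a mean of at least 10 RPKM. The groups, gene lists and naming rule were chosen with earlier results of these data known, so the lists are not independent evidence. Alternatives were a pseudocount of 0.1, no filter, quantile normalization, array weights, Ddx3y as a covariate, the 2 groups alone, each day 5 mouse left out, and the mouse as a block between populations. Mouse numbers mark the same animal across populations. Deviations from the group mean correlated at −0.0152 to 0.249 over 20 pairs of a mouse's facial and other samples. Some items are not reported here.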

Additional observations from a re-analysis of the deposited data

Results flagged for a closer look

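In the 4 facial controls of day 5, Gm23209 had 4.25 RPKM in mouse 71 and 0 in the other 3, so the gap to the next value was the whole range (ratio 1). Any gene at 0 in 3 of the 4 controls and above 0 in the other gives this ratio, so the flag says no more than that. The genotype difference of Gm11243 changed between days 5 and 10 by −2.57 (SE 0.312, limma adjusted p = 0.000123) and between days 2 and 5 by 2.56 (SE 0.288, limma adjusted p = 3.16e-05). It entered the test only through the 3 SMA mice of day 5, so both values restate what let it in. The genotype difference of Cdc16 changed between days 2 and 5 by 2.64 (SE 0.395, limma adjusted p = 0.00311), from lower to higher in SMA. In these comparisons the mice of different ages are different animals.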

How the results depend on the processing

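Over 13 alternatives, 0 of the values of the 12 called genes changed sign. The genotypes did not overlap in any of these genes, so leaving out a mouse could not reverse a sign. The count therefore says nothing of how stable the calls are. Against 11 genes higher in SMA, a pseudocount of 0.1 gave 6, quantile normalization 6 and the fit of the 2 groups alone 2, with 4 to 14 when 1 mouse was left out. Against 1 lower, the fit of the 2 groups alone gave 0, and leaving out 1 mouse gave 1 to 2, the further gene without control mouse 75 being Gm12603. Smn1 and Snord13 were lost with the 2 groups alone and in no other alternative. Array weights gave 15 genes that differed between days 5 and 10 against 6, and leaving out 1 mouse 5 to 13 (13 without SMA mouse 61). Between days 2 and 5 that range was 2 to 4 against 2. With the mouse as a replicate block (consensus correlation 0.04) the comparisons with vagus, hypoglossal and lumbar neurons again gave 0 genes and changed no call, with 1068, 925 and 843 at an unadjusted p under 0.05. Against vagus, no filter gave 1 gene (Nmur2) and quantile normalization 1 (AI115009). Leaving out 1 mouse gave 0 to 1 against vagus, 0 to 1 against hypoglossal and 0 to 2 against lumbar neurons, the nonzero values without SMA mouse 77. The cause of these shifts was not tested. The counts of p53 targets, oligodendrocyte markers, small nucleolar RNAs and day 10 genes without each mouse were added after the data were seen. Depth limits what can be said of scarce transcripts, as the floor of 3 reads for Gm11243 in a control library was up to 1.05 RPKM.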

Other observations

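Rows were compared by gene class, a grouping chosen after values were seen. Of 463 small RNA rows tested at day 5, 2 passed, where 12 of all 17270 genes (0.0695%) did. These were Snord13 and Gm23209, and Gm23209 entered the test only through the SMA mice of day 5. Of the small RNA rows 7.56% were higher and 0.216% lower at an unadjusted p under 0.05, with a median log2 fold change of 0.2. Of 12950 protein-coding genes 3.84% were higher and 1.51% lower, with a median of 0.07. Of 1378 pseudogenes 1.89% were higher and 0.435% lower. Over all genes the shares were 4.04% and 1.43%.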
